A study of Rattus norvegicus with 24 samples.

Results

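The phagocyte NADPH oxidase is described here through 5 of its genes, Cyba, Cybb, Ncf1, Ncf4 and Rac2, measured in rat blood. Its members were all probes other than controls that the array files name for these genes, which gave 1 probe per gene, 5 of 30367 probes and 5 of 25885 gene names on the array. All 5 probes passed the filter on dim probes in every comparison.

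The oxidase is the enzyme with which neutrophils and monocytes make superoxide from oxygen when they meet microbes. Its membrane part is a flavocytochrome of a catalytic subunit, encoded by Cybb, and a smaller partner that stabilises it, encoded by Cyba. In resting cells the organiser protein of Ncf1 and the phosphoinositide-binding protein of Ncf4 wait in the cytosol as parts of a complex, and on stimulation they move to the membrane together with the small GTPase Rac2. Loss of Cybb, Cyba, Ncf1 or Ncf4 function causes chronic granulomatous disease, in which phagocytes ingest microbes but kill some of them poorly.

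Whole blood of single Sprague Dawley rats was hybridized on 24 two-color arrays, 4 for each of 6 groups, each against a common reference RNA pooled from rats of the experiment. The rats were males of 8 weeks and were fed for 6 weeks. C-G0 rats had the semi-synthetic control diet, C-G1 rats the same diet with oat beta-glucan of high molecular weight, and C-G2 rats that with oat beta-glucan of low molecular weight, all without lipopolysaccharide (LPS). LPS-G0, LPS-G1 and LPS-G2 rats had the same 3 diets and intravenous LPS of 10 mg/kg, a bacterial cell wall product that sets off inflammation. For LPS-G0 replicates 3 and 4 the titles name LPS but the field on inflammation reads control. They were used as LPS-G0 by their titles.

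All values are log2(Cy3/Cy5), the rat RNA over the reference. The labels name Cy3 for the rat RNA, the study's methods name Cy5, and the labels were followed because the Cy3 channel varied more between rats: the median SD within groups over 7074 bright probes was 0.383 in Cy3 and 0.257 in Cy5, and was larger in Cy3 for 95.3% of these probes. Under the dyes of the methods the sign of every ratio and difference below would turn, while correlations between ratios would keep theirs. The log ratios of single arrays against the shared reference correlated between -0.60 and 0.67 over these probes. A positive value means more signal than in the pool, and since no dyes were swapped only differences between groups are compared.

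The first C-G0 array stood apart. Over all probes tested, its median absolute deviation from the mean of the other 3 arrays of its group was 0.542 on the log2 scale, against 0.159 to 0.411 for the other 23 arrays. The Cy3 signal cleared the background for 7786 to 15385 probes on each array. Blood was recognisable by its markers, since 6 of 12 neutrophil genes and 6 of 10 monocyte genes, among them S100a8, S100a9, Csf1r and Cd68, were above background on every array. Of the neutrophil granule genes, Ltf was above background on 0 of 24 arrays.

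Each probe is a 60-base sequence, present as 2 spots on each array, and stands for its gene in all results. On the rn4 assembly the Cybb probe lies at chrX:25518505-25518564 on the minus strand and the Ncf4 probe at chr7:116190216-116190275 on the plus strand. The Rac2 probe lies close to it, at chr7:116520067-116520126 on the minus strand, the Ncf1 probe at chr12:23587232-23587291 on the plus strand and the Cyba probe at chr19:52713156-52713215 on the minus strand. The Cyba, Ncf1 and Rac2 probes hold a polyadenylation signal. The Cybb and Ncf4 probes hold none, and only these are shown for that reason.
Cybb probe: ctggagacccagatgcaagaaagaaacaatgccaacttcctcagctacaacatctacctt
Ncf4 probe: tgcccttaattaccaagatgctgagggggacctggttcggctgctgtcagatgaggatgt

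RefSeq promoters were given for 3 of the 5 members, and the 120 bases before the start are shown for each of these, on the gene's strand of GRCr8. They lie at chrX:16065066-16065185 for Cybb, chr19:67404215-67404334 for Cyba and chr12:28121765-28121884 for Ncf1. Capitals mark the letters TTCCTC (or GAGGAA on the other strand), a core bound by myeloid ETS factors such as the product of Spi1, and CCAAT (or ATTGG).
Cybb promoter: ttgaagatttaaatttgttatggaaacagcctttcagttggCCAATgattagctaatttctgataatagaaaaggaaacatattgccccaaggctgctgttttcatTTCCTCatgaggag
Cyba promoter: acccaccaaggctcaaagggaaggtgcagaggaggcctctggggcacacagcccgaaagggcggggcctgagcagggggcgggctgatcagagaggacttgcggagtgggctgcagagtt
Ncf1 promoter: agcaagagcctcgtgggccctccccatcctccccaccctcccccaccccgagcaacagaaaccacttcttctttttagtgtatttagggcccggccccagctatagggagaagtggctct

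In the 250 bases searched, Cybb held TTCCTC at position -14 from the start and CCAAT at -79 and -203, and neither motif was found in these windows of Cyba and Ncf1. Of 33469 promoters of this length, 23.3% held GAGGAA or TTCCTC and 34% held CCAAT or ATTGG. The Cybb window had 32% G and C bases, against 59.6% for Cyba and 58.4% for Ncf1. Any part of these sequences in the values of the members was not tested.

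None of the 5 members passed the test in any of the comparisons made, with the arrays as deposited. A gene was called at a limma p under 0.05 after Benjamini-Hochberg adjustment, which ran over every probe tested. In LPS-G0 vs. C-G0 0 of 5 members were called, beside 0.0097% of the probes tested, and in LPS-G1 vs. LPS-G0 0 of 5, beside 8.93%. In LPS-G2 vs. LPS-G0, LPS-G2 vs. C-G2 and LPS-G1 vs. LPS-G2 0 of 5 members were called, and 0% of all probes. In C-G1 vs. C-G0 and C-G2 vs. C-G0 0 of 5 were called beside 0.028%, and in LPS-G1 vs. C-G1 0 of 5 beside 0.00934%. At an unadjusted p under 0.05 limma gave 2 members in LPS-G1 vs. LPS-G0, beside 26.9% of all probes, 2 in LPS-G2 vs. LPS-G0, beside 8.23%, 1 in C-G2 vs. C-G0, beside 13.3%, and 1 in LPS-G1 vs. LPS-G2, beside 4.21%. It gave 0 members in LPS-G0 vs. C-G0, beside 15.2%, in C-G1 vs. C-G0, beside 27.9%, in LPS-G1 vs. C-G1, beside 2.81%, and in LPS-G2 vs. C-G2, beside 1.09%. The first C-G0 array bears on these counts: without it 3 members, Cyba, Ncf1 and Rac2, were called in LPS-G1 vs. LPS-G0 and 2, Ncf1 and Rac2, in LPS-G0 vs. C-G0, as given with these comparisons.

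Cyba, the smaller flavocytochrome subunit, was at its lowest in LPS-G0. The 4 LPS-G0 arrays had log2 ratios of -0.65, -0.14, -0.45 and -0.64, the LPS-G1 arrays 0.14, -0.11, -0.13 and 0.13, and the LPS-G2 arrays 0.20, -0.03, 0.23 and 0.15. Every array of both beta-glucan groups with LPS lay above every LPS-G0 array, though the lowest LPS-G1 array, at -0.131, cleared the highest LPS-G0 array, at -0.142, by little. The C-G0 arrays had -1.46, 0.24, -0.15 and -0.18, so that the first lay far under the other 3. In order of their means the groups were LPS-G2 (0.14 ± 0.12, SD, n = 4), C-G1 (0.08 ± 0.16), C-G2 (0.03 ± 0.18), LPS-G1 (0.01 ± 0.15), C-G0 (-0.38 ± 0.74) and LPS-G0 (-0.47 ± 0.24).

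Ncf1, which encodes the organiser of the cytosolic complex, was lowest in the same group. Its LPS-G0 arrays had -0.63, -0.59, -0.22 and -0.90, its LPS-G1 arrays 0.11, 0.10, -0.21 and -0.26, and its LPS-G2 arrays -0.02, -0.33, 0.24 and 0.11. The third LPS-G0 array overlapped with the low arrays of the other groups. C-G0 again held a low first array, with -0.98, 0.41, 0.08 and -0.10. The order was C-G1 (0.12 ± 0.22, SD, n = 4), LPS-G2 (0.0016 ± 0.24), LPS-G1 (-0.07 ± 0.20), C-G0 (-0.15 ± 0.59), C-G2 (-0.28 ± 0.31) and LPS-G0 (-0.58 ± 0.28).

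Rac2, the small GTPase of blood cells that switches the assembled oxidase on, followed Ncf1 most closely. The LPS-G0 arrays had -0.41, -0.46, -0.34 and -0.92, the LPS-G1 arrays 0.03, 0.46, -0.22 and 0.15, and the LPS-G2 arrays -0.05, -0.19, 0.04 and -0.14. All LPS-G0 arrays lay below all arrays of these 2 groups. The C-G0 arrays had -1.05, 0.03, 0.14 and -0.08. The order was C-G1 (0.11 ± 0.26, SD, n = 4), LPS-G1 (0.10 ± 0.28), LPS-G2 (-0.09 ± 0.10), C-G2 (-0.20 ± 0.25), C-G0 (-0.24 ± 0.55) and LPS-G0 (-0.53 ± 0.26).

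Cybb, the catalytic subunit, had nearly the same mean in all groups. Its group means ran from 0.40 ± 0.14 (SD, n = 4) in C-G2 over 0.40 ± 0.25 in C-G1, 0.38 ± 0.32 in LPS-G1, 0.34 ± 0.59 in C-G0 and 0.31 ± 0.11 in LPS-G2 to 0.21 ± 0.27 in LPS-G0. The range of these means, 0.19, was smaller than the pooled SD within groups, 0.321. Its 2 spots differed more than those of the other members, with a median SD between spots of 0.112 against 0.0205 to 0.0336. Its probe was also the dimmest, with a median Cy3 signal of 142, against 1520 (Ncf4) to 11885 (Rac2) for the others. Whether the low signal flattened its means or weakened its correlations was not tested.

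Ncf4, whose product binds the phosphoinositide of phagosome membranes, had its lowest mean in C-G0, where the other 4 members had theirs in LPS-G0. Its C-G0 arrays had -0.28, -0.38, -0.14 and -0.11 and its C-G2 arrays 0.18, 0.34, 0.01 and 0.20, so that all C-G2 arrays lay above all C-G0 arrays. The order was LPS-G2 (0.24 ± 0.14, SD, n = 4), C-G2 (0.19 ± 0.14), LPS-G0 (-0.0027 ± 0.15), C-G1 (-0.04 ± 0.22), LPS-G1 (-0.06 ± 0.17) and C-G0 (-0.23 ± 0.13). It was the steadiest member, with a pooled SD within groups of 0.160 beside 0.313 to 0.341 for the others, and only 4.18% of all probes tested had a smaller one.

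**Figure D1:**
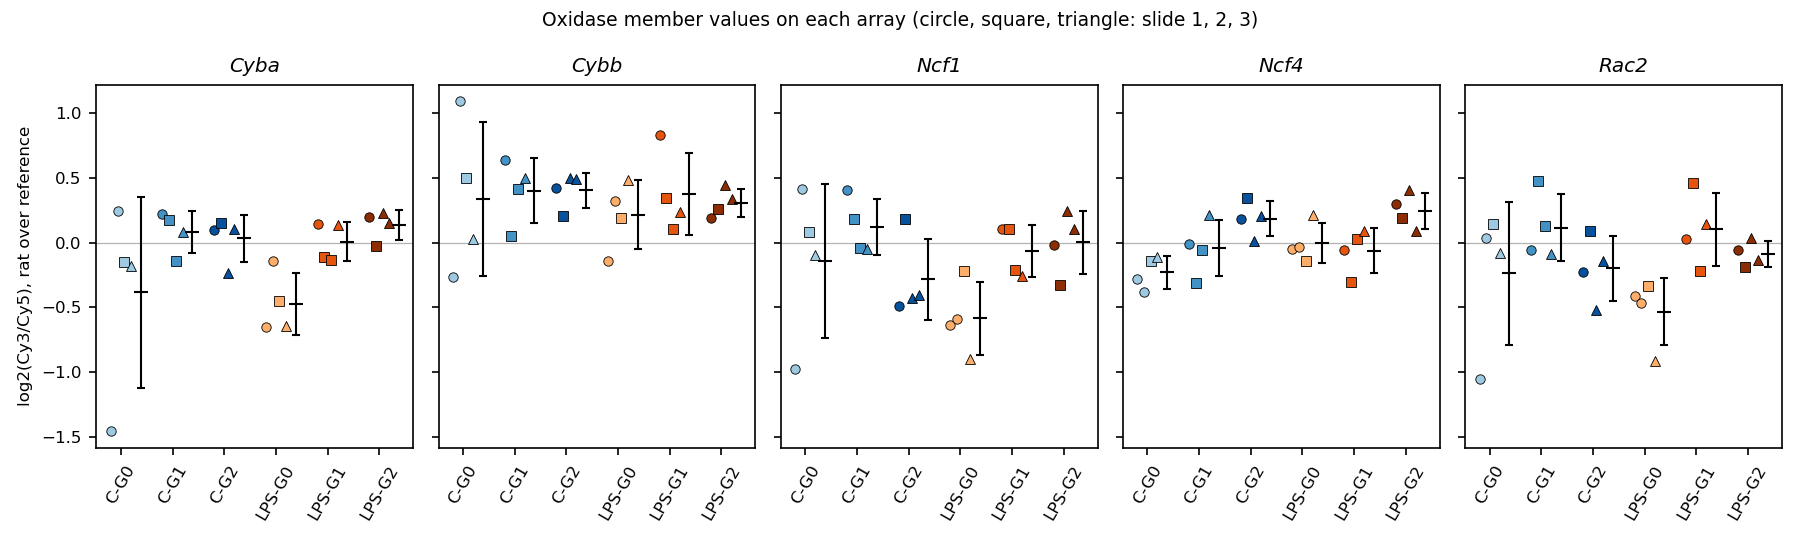
Value of each member on each array as log2(Cy3/Cy5), the rat RNA over the reference, with the 6 groups on the horizontal axis, symbols for the 3 slides, and the group mean ± SD (n = 4) as a bar beside the points. The LPS-G0 mean is the lowest for Cyba, Cybb, Ncf1 and Rac2, the first C-G0 array lies at -1.46, -0.98 and -1.05 for Cyba, Ncf1 and Rac2, and for Ncf4 the lowest mean is that of C-G0.

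LPS-G0 thus had the lowest mean for 4 of 5 members, and C-G0 for Ncf4. Without the second C-G0 array LPS-G0 was lowest for 2 of 5, and the share over all probes was not counted. Few steps in these orders exceeded the spread. Of the 25 pairs of neighbouring groups, 3 differed by more than their pooled SD (Ncf1 between C-G2 and LPS-G0, Ncf4 between C-G2 and LPS-G0 and between LPS-G1 and C-G0), and 0 did not overlap. The smallest exact permutation p of a neighbouring pair was 0.114, and after adjustment over the 25 pairs 0.971. In the test for any difference among the 6 groups 0 of 5 members were called, beside 0.00934% of the probes tested. Ncf4 had the smallest p there (F = 3.19, unadjusted p = 0.0252, adjusted p = 0.163, limma), and the adjusted p was 0.237 for Cyba, 0.253 for Ncf1, 0.238 for Rac2 and 0.965 for Cybb.

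LPS-G0 vs. C-G0 asks what LPS did in rats on the control diet. Differences, LPS-G0 minus C-G0 on the log2 scale, were -0.44 (SE 0.24) for Ncf1, -0.29 (SE 0.23) for Rac2, -0.12 (SE 0.24) for Cybb, -0.09 (SE 0.26) for Cyba and 0.23 (SE 0.14) for Ncf4. Adjusted p ran from 0.399 for Ncf1 to 0.904 for Cyba (limma). The median of the 5 was -0.12, beside 0.03 over all probes tested. The confidence intervals stayed wide, and that of Ncf1 reached from -0.95 to 0.07. Blood is a mix of cells, in which fewer cells of a type and less RNA per cell cannot be told apart. Of the marker lists, 6 NK cell genes had a median difference of 0.83 in this comparison, with 6 of 6 above 0 and 5 at an unadjusted p under 0.05, and 6 neutrophil genes one of -0.54, with 1 of 6 above 0 and 3 at an unadjusted p under 0.05. The mean of the NK cell genes was -1.37 on the first C-G0 array and lay between -0.47 and -0.014 on the rest of that group. On the LPS-G0 arrays it lay between -0.060 and 0.56. The 7 monocyte genes had a median of -0.15. In each list 0 genes were called by limma, and their part in the values of the members was not tested.

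Leaving out the first C-G0 array turned Ncf1 and Rac2 into called genes in this comparison. Ncf1 was then lower in LPS-G0 by 0.72 (-0.72, SE 0.19, adjusted p = 0.0268, limma) and Rac2 by 0.56 (-0.56, SE 0.17, adjusted p = 0.0434), 2 of 5 members beside 11% of all probes tested. Cyba, at -0.45 (adjusted p = 0.0744), and Cybb, at -0.32 (adjusted p = 0.358), were not called. Over all alternatives tried, the adjusted p of Ncf1 lay between 0.0268 and 0.873 and that of Rac2 between 0.0434 and 0.892. The second C-G0 array was high for Cyba and Cybb (0.24 and 1.09), and without it their differences were 0.12 and 0.13.

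LPS-G1 vs. LPS-G0 asks what beta-glucan of high molecular weight changed in rats given LPS. Rac2 was higher in LPS-G1 by 0.63 (SE 0.23, 1.55-fold, 95% confidence interval 0.15 to 1.12), with an unadjusted p of 0.0129 and an adjusted p of 0.0898 (limma). Ncf1 was higher by 0.52 (SE 0.24, 1.43-fold, adjusted p = 0.178) and Cyba by 0.48 (SE 0.26, 1.40-fold, adjusted p = 0.246). Cybb, at 0.16 (SE 0.24, adjusted p = 0.671), and Ncf4, at -0.06 (SE 0.14, adjusted p = 0.794), lay within their errors. The LPS-G1 arrays lay above the LPS-G0 arrays without overlap for 2 of 5 members, Cyba and Rac2, beside 7.3% of all probes. The exact permutation p of these 2 was 0.0286, the smallest that 70 arrangements allow.

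The differences in this comparison do not use the C-G0 arrays, but its error does, since 4 groups share it. Without the first C-G0 array the differences stayed the same and the errors shrank, and Rac2 (adjusted p = 0.0124), Cyba (adjusted p = 0.0312) and Ncf1 (adjusted p = 0.0476) were called higher in LPS-G1 by limma, 3 of 5 members beside 18.7% of all probes. Over all alternatives the adjusted p lay between 0.0115 and 0.375 for Rac2, between 0.0312 and 0.516 for Cyba and between 0.0311 and 0.417 for Ncf1. With LPS-G0 replicates 3 and 4 left out the differences were 0.54 for Rac2, 0.54 for Ncf1 and 0.41 for Cyba, and no member was called.

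**Figure D2:**
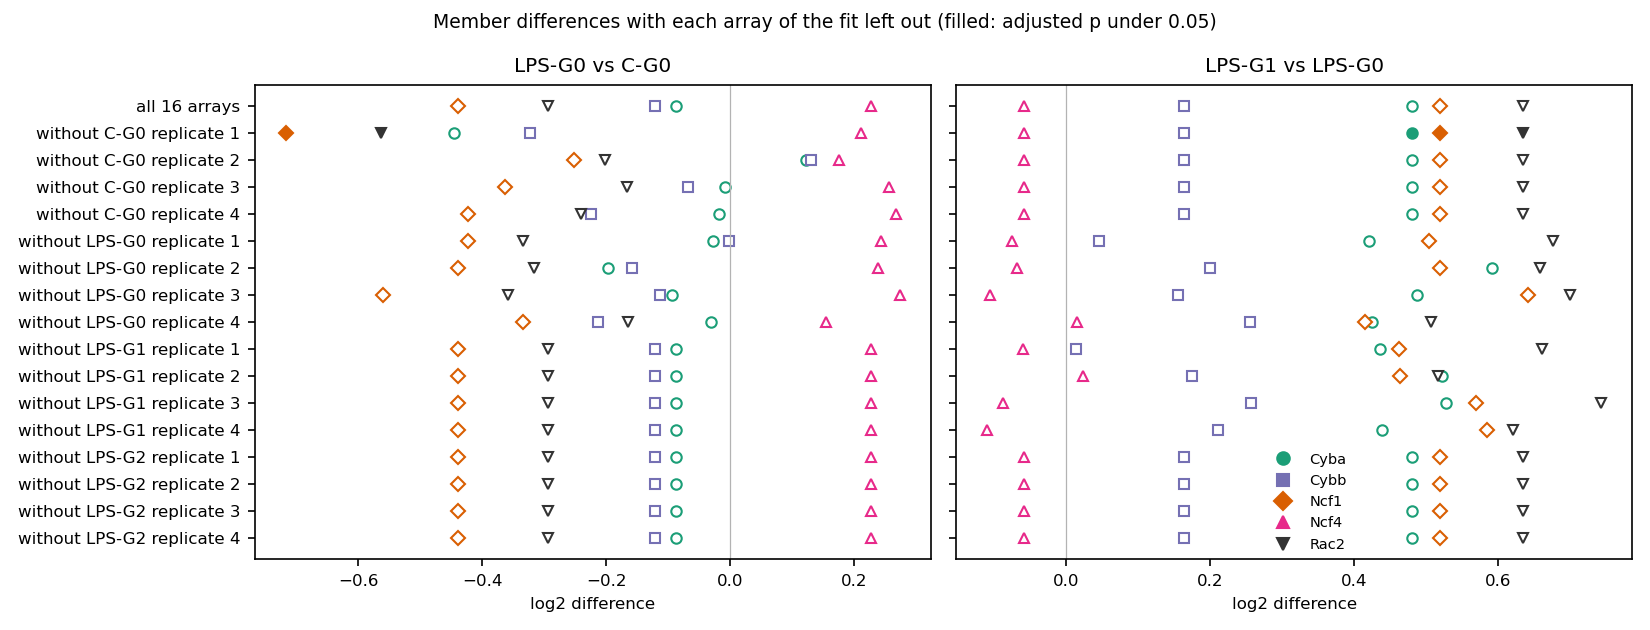
Log2 difference of each member in LPS-G0 vs. C-G0 (left) and LPS-G1 vs. LPS-G0 (right) with all 16 arrays of the fit and with each array left out in turn, filled where the adjusted p was under 0.05. Filled symbols appear only in the line without the first C-G0 array, for Ncf1 and Rac2 on the left and for Cyba, Ncf1 and Rac2 on the right.

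LPS-G2 vs. LPS-G0 asks the same of beta-glucan of low molecular weight. Cyba was higher in LPS-G2 by 0.61 (SE 0.26, 1.53-fold, unadjusted p = 0.0324, limma), Ncf1 by 0.59 (SE 0.24, unadjusted p = 0.0267) and Rac2 by 0.45 (SE 0.23, 1.36-fold, unadjusted p = 0.0669), each with an adjusted p of 0.597. Ncf4 was higher by 0.25 (SE 0.14, adjusted p = 0.603) and Cybb by 0.09 (SE 0.24, adjusted p = 0.925). For 2 of 5 members, Cyba and Rac2, all LPS-G2 arrays lay above all LPS-G0 arrays, beside 2.81% of all probes, with an exact permutation p of 0.0286. All 5 differences were above 0, with a median of 0.45, beside -0.02 over all probes tested. In LPS-G1 vs. LPS-G0 4 of 5 were above 0, with a median of 0.48 beside 0.06, and both comparisons share the LPS-G0 arrays.

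Each slide held all 6 groups, so the differences could also be taken within slides, from 1 or 2 arrays a group. For Rac2, LPS-G1 minus LPS-G0 was 0.46, 0.46 and 1.06 on slides 1, 2 and 3, and LPS-G2 minus LPS-G0 was 0.38, 0.15 and 0.87. For Cyba the same differences were 0.54, 0.33 and 0.78, and 0.60, 0.42 and 0.83. Those of Ncf1 were 0.72, 0.17 and 0.64 for LPS-G1 and 0.59, -0.11 and 1.07 for LPS-G2. Cyba and Rac2 were above LPS-G0 on all 3 slides in both comparisons, which the lack of overlap between their groups had already fixed. Ncf1, whose groups overlapped, was above LPS-G0 in all but 1 case.

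Markers of monocytes, neutrophils and other blood cells were read on the same arrays. The mean log2 ratio of 8 monocyte genes lay between -0.49 and -0.17 on the LPS-G0 arrays, between -0.20 and 0.20 in LPS-G1 and between -0.23 and 0.34 in LPS-G2. That of 6 neutrophil genes lay between -0.47 and 0.02, between -0.43 and 0.01 and between -0.18 and 0.69. In LPS-G1 vs. LPS-G0 0 of 7 monocyte genes and 0 of 6 neutrophil genes tested were called, with medians of 0.37 and 0.17, and in LPS-G2 vs. LPS-G0 0 of 7 and 0 of 6, with medians of 0.37 and 0.62. The 4 B cell genes tested had medians of 0.38 in both comparisons, with 3 of 4 above 0 in each and 0 called. In LPS-G1 vs. LPS-G0 the medians were 0.14 for T cell, -0.23 for NK cell, -0.16 for erythroid and 0.03 for platelet genes. In LPS-G2 vs. LPS-G0 these were -0.05, -0.40, -0.03 and 0.04. The part of any list in the values of the members was not tested.

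Among the other comparisons Ncf4 in C-G2 vs. C-G0, the diet with low molecular weight beta-glucan without LPS, had the smallest unadjusted p of any member in any pair. It was higher in C-G2 by 0.42 (SE 0.14, 95% confidence interval 0.13 to 0.70, unadjusted p = 0.00617, adjusted p = 0.234, limma), and by 0.52, 0.49 and 0.22 within slides 1, 2 and 3. It was the 1 of 5 members whose C-G2 arrays all lay above the C-G0 arrays, beside 1.34% of all probes, which fixed the sign within slides. Without the first C-G0 array the difference was 0.40 (adjusted p = 0.306, limma). The mean of the neutrophil genes lay between -0.38 and 0.81 in C-G2 and between -0.01 and 0.28 in C-G0, and that of the monocyte genes between -0.11 and 0.27 and between -0.78 and 0.20. Ncf4 was also lower in LPS-G1 than in LPS-G2, by 0.30 (-0.30, SE 0.14, unadjusted p = 0.0370, adjusted p = 0.808, limma).

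Cyba was higher than in C-G0 by 0.47 (SE 0.23, adjusted p = 0.191, limma) in C-G1 and by 0.42 (SE 0.23, adjusted p = 0.449) in C-G2, and Rac2 by 0.35 (SE 0.22, adjusted p = 0.273) in C-G1. Without the first C-G0 array these differences were 0.11, 0.06 and 0.08. Within the beta-glucan diets the LPS and control groups lay close together. LPS-G1 minus C-G1 ran from -0.19 to -0.01 over the 5 members and LPS-G2 minus C-G2 from -0.10 to 0.29, the last for Ncf1 (SE 0.23, adjusted p = 1.00). In the remaining pairs the arrays of the groups overlapped for all 5 members, where 5.03% of all probes did not overlap in LPS-G0 vs. C-G0, 7.04% in C-G1 vs. C-G0, 2.73% in LPS-G1 vs. C-G1, 1.07% in LPS-G2 vs. C-G2 and 6.57% in LPS-G1 vs. LPS-G2.

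Averaged over the 3 diets, LPS minus control ran from -0.11 (Ncf1, SE 0.13, adjusted p = 0.799, limma) to 0.09 over the members, and 0 of 5 were called beside 0.0187% of all probes. Whether the response to LPS differed between diets was tested as an interaction, and 0 of 5 members and 0% of all probes were called. Ncf1 had the smallest unadjusted p of the 5 there, 0.101, and every adjusted p was 0.999. The values on the control diet and on the beta-glucan diets are therefore given side by side, with no difference between diets shown by the test.

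**Figure D3:**
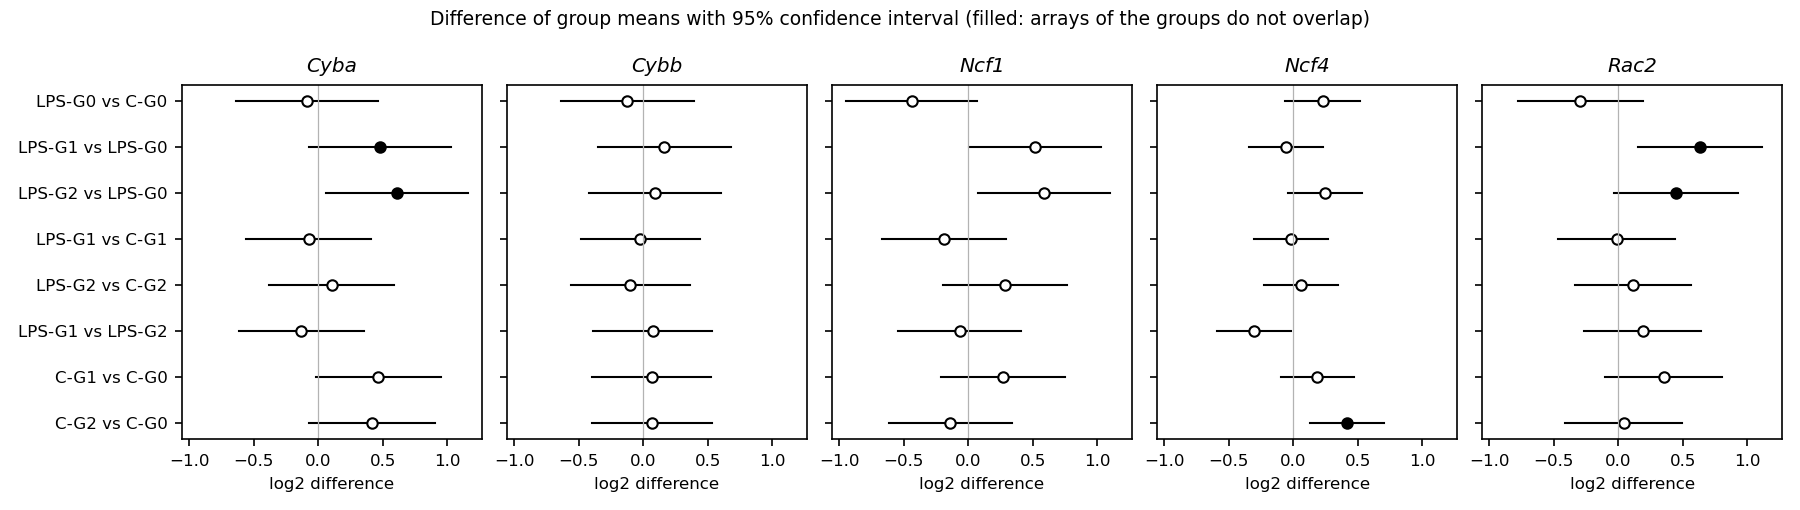
Difference of group means for each member in 8 comparisons on the log2 scale, first group minus second, with the 95% confidence interval of the limma fit, filled where no array of one group overlaps those of the other. Filled points are Cyba and Rac2 where LPS-G1 or LPS-G2 is set against LPS-G0, and Ncf4 in C-G2 vs. C-G0, and Cybb lies near 0 throughout.

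The members did not vary as 1 unit over the 24 arrays. Cyba, Ncf1 and Rac2 varied together from array to array, with a Pearson r of 0.76 between Cyba and Ncf1, 0.75 between Cyba and Rac2 and 0.82 between Ncf1 and Rac2. Without the first C-G0 array these were 0.70, 0.62 and 0.76. With group means taken out they were 0.78, 0.72 and 0.76 on all arrays, and 0.53, 0.32 and 0.54 without the first C-G0 array. Cybb was related to Cyba with r = 0.56 (0.39 without that array) and to Rac2 with r = 0.26 (0.025). Ncf4 had r between -0.11 and 0.32 with the other 4, and between -0.33 and 0.16 without that array. All arrays share 1 reference RNA, and these values are given as a description.

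**Figure D4:**
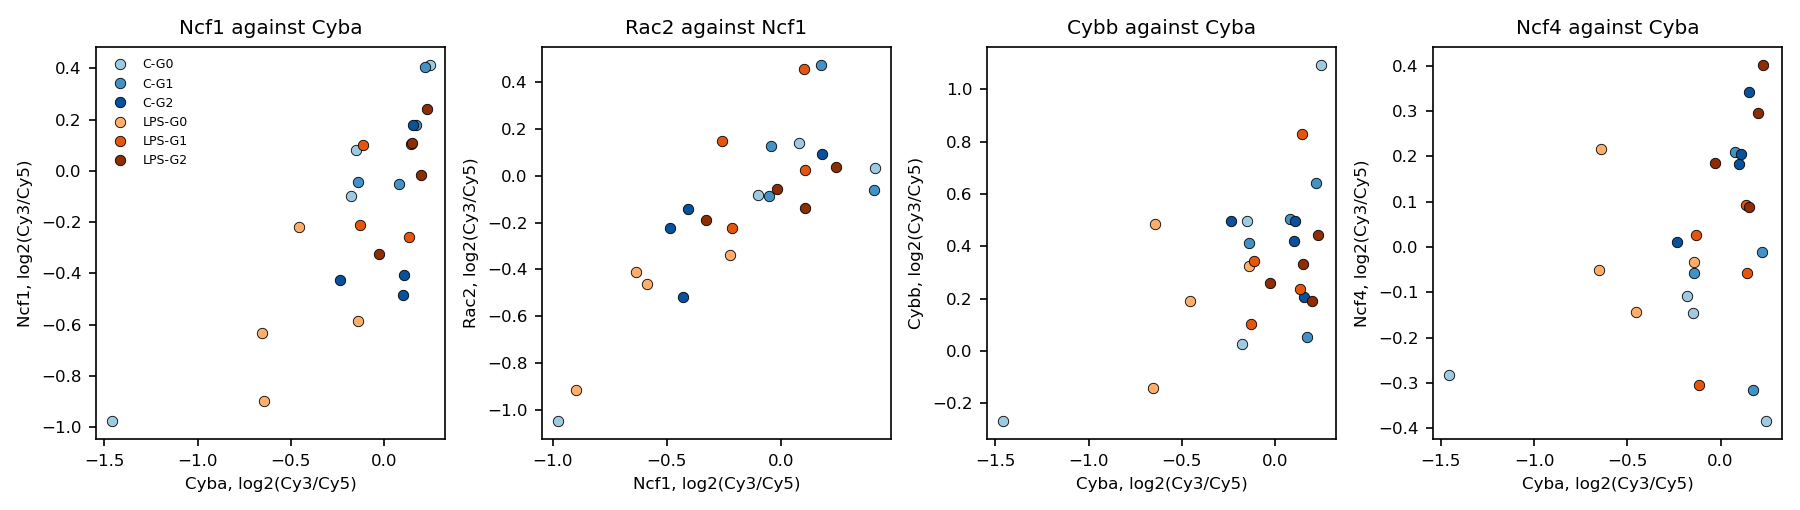
Log2(Cy3/Cy5) of pairs of members on the 24 arrays, colored by group. Ncf1 follows Cyba (r = 0.76) and Rac2 follows Ncf1 (r = 0.82), with the first C-G0 array at the lower left of each panel but the last, while Cybb (r = 0.56) and Ncf4 (r = 0.32) follow Cyba less.

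Of 6856 other named genes, those most like each member over the 24 arrays by Pearson r were Unc93b1 (0.948), Tkt (0.946) and Napsa (0.939) for Cyba. For Ncf1 they were Stat2 (0.910), Man2b1 (0.889) and Csnk1g2 (0.883), and for Rac2 Ndufv3 (0.966), Gorasp1 (0.931) and Nelfb (0.929). Cybb was most like Fam46a (0.797), Rrbp1 (0.770) and Csf2ra (0.726), and Ncf4 was most like Cd300c (0.820), Upp1 (0.811) and Rhoj (0.779). Without the first C-G0 array Cyba had 0.885 with Unc93b1, 0.943 with Tkt and 0.867 with Napsa. For the gene named first for each other member, r was then 0.888 (Stat2), 0.954 (Ndufv3), 0.739 (Fam46a) and 0.842 (Cd300c). Unc93b1 carries Toll-like receptors to endosomes, Tkt is a transketolase of sugar metabolism, and Stat2 is a transducer of interferon signals.

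The members were also set against the cell markers. Cyba had r = 0.78 with the mean of the monocyte genes (0.65 without the first C-G0 array) and r = 0.16 with that of the neutrophil genes (0.42). Ncf4 had r = 0.57 with the neutrophil genes (0.65) and 0.48 with the monocyte genes (0.39). Rac2 had r = -0.04 with the neutrophil genes (0.060) and 0.49 with the monocyte genes (0.27), 0.60 with the T cell genes (0.48) and -0.67 with the mean of the 8 erythroid genes (-0.63). Ncf1 had r = 0.12 with the neutrophil genes (0.22), 0.48 with the monocyte genes (0.29) and 0.68 with the B cell genes (0.60). Cybb had r = 0.51 with the monocyte genes (0.34) and 0.08 with the neutrophil genes (0.17). The B cell genes had r = 0.42 with Cyba (0.20), 0.44 with Cybb (0.32), -0.21 with Ncf4 (-0.38) and 0.51 with Rac2 (0.38). The T cell genes had 0.40 with Cyba (0.13), 0.099 with Cybb (-0.12), 0.32 with Ncf1 (0.15) and -0.33 with Ncf4 (-0.53). The erythroid genes had -0.46 with Cyba (-0.37), -0.15 with Cybb (-0.014), -0.45 with Ncf1 (-0.37) and 0.21 with Ncf4 (0.33). These are descriptions over 24 arrays that share the reference and the dye balance within each array.

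**Figure D5:**
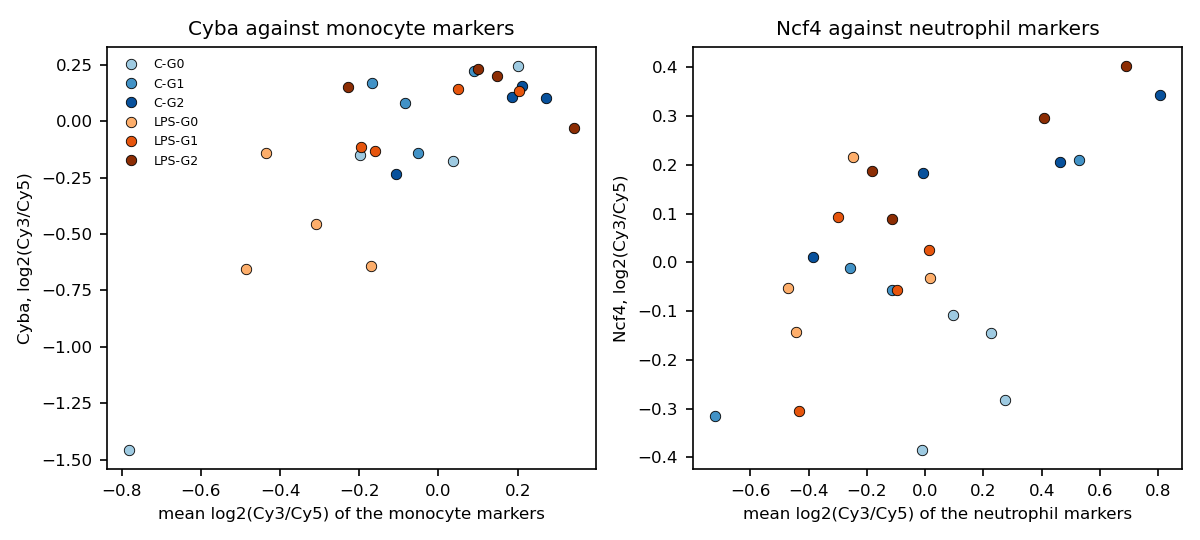
Cyba against the mean of 8 monocyte genes (left) and Ncf4 against the mean of 6 neutrophil genes (right), both axes as log2(Cy3/Cy5), on the 24 arrays colored by group. Cyba follows the monocyte genes (r = 0.78) with the first C-G0 array lowest, and Ncf4 follows the neutrophil genes more loosely (r = 0.57).

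Other genes that act with the oxidase were read in the same way. Rac1, the GTPase that can replace Rac2, was above background on all arrays and differed by -0.05 (SE 0.20) in LPS-G0 vs. C-G0, by -0.30 (SE 0.20, adjusted p = 0.321, limma) in LPS-G1 vs. LPS-G0, and by -0.13 (SE 0.20) in LPS-G2 vs. LPS-G0. Hvcn1, the proton channel that balances the charge the oxidase moves, was above background on 2 to 4 arrays of each group and was not tested in these 3 comparisons. Spi1, the myeloid transcription factor, was above background on all 4 arrays of C-G2 and of LPS-G2, through which it entered the test, and on 2 of 4 C-G0 arrays. Its arrays lay between 0.0075 and 0.86 in C-G2 and between -2.16 and -0.69 in C-G0. It was not called in this comparison (adjusted p = 0.101, limma), and 31 of 34 alternatives left it so, with adjusted p from 0.0128 to 0.594.

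Of the 12 other genes of the NADPH oxidase family, 11 were on the array by name and 4 were tested. In LPS-G1 vs. LPS-G0 2 of these 4 were called, both lower in LPS-G1. Over the array 8.93% of all probes tested were called, 865 lower and 56 higher. Duox1, an epithelial oxidase that makes hydrogen peroxide, fell by 0.83 (SE 0.19, adjusted p = 0.0289, limma). Noxa1, the activator of the Nox1 oxidase, fell by 0.78 (SE 0.23, adjusted p = 0.0460). The Duox1 arrays lay between -0.75 and -0.29 in LPS-G1 and between 0.18 and 0.50 in LPS-G0. The Noxa1 arrays lay between -0.77 and -0.09 in LPS-G1 and between -0.04 and 0.56 in LPS-G0. In the other comparisons 0 of the 4 were called. The adjusted p of Duox1 lay between 0.00106 and 0.372 over 29 alternatives, of which 11 ended the call, and that of Noxa1 between 0.00319 and 0.340 over 28, of which 17 did so.

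Of 18 genes that activate or support the oxidase, 12 were tested in LPS-G1 vs. LPS-G0, and the median of the 12 was 0.20. Of these, 2 were called lower in LPS-G1 and 0 higher, beside 8.93% of all probes called, most of them lower. Vav3, an exchange factor that loads Rac with GTP, fell by 1.12 (SE 0.19, adjusted p = 0.0289, limma). It lay between -1.03 and -0.66 on the LPS-G1 arrays and between 0.00 and 0.51 on the LPS-G0 arrays. Pik3r5, the regulatory subunit of phosphoinositide 3-kinase gamma, fell by 0.50 (SE 0.14, adjusted p = 0.0353). The call of Vav3 ended under 9 of 29 alternatives and that of Pik3r5 under 12 of 29, among them leaving out single LPS-G0 arrays (replicate 1 or 4) or LPS-G1 replicate 2, 3 or 4, as for Duox1 and Noxa1. Without those single arrays 0 to 4 probes of the whole array were called in this comparison, where 921 were called with all arrays. In the other comparisons 0 of the 12 or 13 tested were called. Of 8 transcription factors of myeloid oxidase genes, 5 or 6 were tested and 0 were called in any comparison.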

How the data were processed

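Blood RNA of 24 rats in 6 groups of 4 was analysed. The authors deposited Agilent Feature Extraction output, one file per array, with background-subtracted, dye-balanced intensity values of each channel and their log10 ratio of Cy5 over Cy3. GEO's processing notes give version 10.7.3.1 and the file headers 10.10.1.1. Their value table also holds log10 ratios, and 1511424 of 1511424 equal those of the single files. Its column medians are 0, its scale and direction are those of the files, and no centring beyond the dye balance was found. Deposited coordinates are on rn4.

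The members and gene lists were chosen with earlier results of these data known. Ratios were turned to log2(Cy3/Cy5). Control spots and outlier spots (679 to 1133 per array) were left out, and spots of a probe averaged. 0 member spots were left out and no member spot was saturated. A probe was tested when the Cy3 flag for signal well over background was set in a share of 0.5 or more of its spots on each of the 4 arrays of some group. The number of arrays limits the precision.

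Tests used limma 3.58.1 (R 4.3.3, data.table version 1.17.8), with 1 fit on 16 arrays for the comparisons of LPS-G0 with C-G0, of LPS-G1 with LPS-G0 and of LPS-G2 with LPS-G0 (10313 probes) and 1 on 24 for the rest (10708 probes), with two-sided p adjusted by Benjamini-Hochberg. The exact permutation test was two-sided over 70 arrangements. The functions were tested on simulated data. Named were all members, Rac1, Hvcn1, Spi1 and every gene of 3 pathway lists with an adjusted p under 0.05, and for likeness the 3 genes of highest r. A listed gene with several probes was read from the brightest. Cybc1 was not matched by name, and 1 further gene of the rule is not reported here. The marker lists also covered T, B and NK cells, erythroid cells and platelets. In LPS-G1 vs. LPS-G0 limma called 1 of 6 NK genes (Klrk1, lower) and 1 of 8 erythroid genes (Epb42, lower), beside 8.93% of all probes. In the other comparisons it called 0 marker genes of any list. Alternatives covered the background correction, the Cy3 channel alone, the filter, blocks for slide and replicate number, variance trend, array weights, the sets of arrays fitted, the methods' ANOVA, and each array left out.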

Additional observations from a re-analysis of the deposited data

Results flagged for a closer look

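Of the 30 sets of 4 arrays (5 members in 6 groups), 2 held an array whose gap to its nearest neighbour exceeded Dixon's critical share of the range of the set, and chance alone marks about 1 in 20 such sets. The third C-G2 array was low for Cyba, at -0.23 on the log2 scale, with the other 3 between 0.10 and 0.15. The second C-G2 array was high for Ncf1, at 0.18, with the other 3 between -0.49 and -0.41. The first C-G0 array, which lay lowest for Cyba, Ncf1 and Rac2, did not pass this limit for any member.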

How the results depend on the processing

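The count of members called stayed at 0 in 9 of the 11 comparisons under all alternatives run. In LPS-G0 vs. C-G0 it was 1 with array weights (Ncf1, beside 11.1% of all probes). It was 0 to 2 when single arrays were left out, the 2 beside 11% of all probes. In LPS-G1 vs. LPS-G0 it was 1 with normexp and loess (Rac2, adjusted p = 0.0486, limma, beside 11.3% of all probes). With array weights it was 3 (Cyba, Ncf1 and Rac2), beside 27.6% of all probes. It was 0 to 3 when single arrays were left out, the 3 beside 18.7% of all probes. Among single arrays left out, only the first C-G0 array gave a call. LPS-G0 had the lowest mean for 2 to 4 of 5 members when single arrays were left out, with 2 without the second C-G0 array. With LPS-G0 replicates 3 and 4 left out, LPS-G2 lay above LPS-G0 without overlap for 4 members, beside 9.24% of all probes, with 2 arrays of LPS-G0 remaining. The cause of these shifts was not tested. Ncf4 in LPS-G1 vs. LPS-G0 turned to 0.077 in the Cy3 channel alone and ran from -0.11 to 0.023 when single arrays were left out. So treated, Cyba and Cybb in LPS-G0 vs. C-G0 ran from -0.45 to 0.12 and from -0.32 to 0.13, and Cybb in LPS-G2 vs. LPS-G0 from -0.027 to 0.18. Rac1 in LPS-G0 vs. C-G0 was 0.047 with array weights and ran from -0.16 to 0.15 when single arrays were left out, and its LPS-G2 minus LPS-G0 difference turned to 0.057 without LPS-G0 replicates 3 and 4.

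Over the array, 921 probes were called in LPS-G1 vs. LPS-G0. The count was 0 in the Cy3 channel alone, with no filter and without LPS-G0 replicates 3 and 4, 3 with all 24 arrays in 1 model, 336 with slide as a block, 2844 with array weights, 1 with the methods' ANOVA and Tukey test after adjustment, and 0 to 1936 when single arrays were left out. In LPS-G0 vs. C-G0 it was 1, against 1142 with array weights and 0 to 1136 when single arrays were left out. The methods' test called 0 members, unadjusted or adjusted, beside 551, 1233 and 161 probes unadjusted in LPS-G0 vs. C-G0 and in LPS-G1 and LPS-G2 against LPS-G0. Arrays of the same replicate number shared some variation, but not in every pair. Their deviations from group means correlated at 0.111 on average, against -0.038 for arrays of other numbers. The lowest was -0.307, and 28 of 60 pairs were over 0.1. Arrays of the same slide had a mean of 0.111, against -0.055 for other slides. The first arrays of all groups shared a slide, as did the fourth, so number and slide cannot be fully told apart. The main fits held no block for number or slide. With the replicate block 0 members were called in any comparison, while the probes called went from 921 to 1269 in LPS-G1 vs. LPS-G0, from 3 to 600 in C-G1 vs. C-G0, from 3 to 43 in C-G2 vs. C-G0 and from 1 to 1319 in the test over 6 groups, and Rac2 in LPS-G1 vs. LPS-G0 was at 0.63 (adjusted p = 0.0891, limma). Each member has 1 probe, so a mean over probes was not run. Spi1 in C-G2 vs. C-G0 was called with that block (1.54, adjusted p = 0.0311, limma). It entered the test only through C-G2 and LPS-G2, where it was highest, so this call is no support for a difference. The 4 arrays a group limit the precision, and Cybb, the member with the widest gap between its spots, had both spots above background on 23 of 24 arrays.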
